A study of Mus musculus with 4 samples.

Results

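The S100 calcium-binding proteins described here are 7 genes, S100a4, S100a6, S100a8, S100a9, S100a10, S100a11 and S100a13, out of 31053 genes counted in single leukocytes of the mouse left ventricle. They were matched by gene symbol, and earlier values of these data were known when they were chosen: S100a4 in macrophage-like cells and S100a6 in nonclassical monocyte-like cells had already been seen to differ between the groups. In those 2 classes the values of all members are therefore given as a description, and nothing is read from their test calls. DOCA-salt mice carried deoxycorticosterone acetate, a mineralocorticoid, with added salt, a regimen that raises blood pressure. Sham mice had the control treatment. All were C57Bl6J mice, whose age and sex are not given in the sources used here, and no allele or agent beyond these is named. Hearts were flushed with PBS, digested with Liberase TM, enriched on CD45 beads, stained with hashtag and surface antibodies, and sorted for live single cells bearing CD45, the surface protein of leukocytes. For each group, cells from 4 mice were combined in 1 library for 5′ single-cell sequencing, so library and group cannot be told apart. The hashtag of each cell names its mouse, and p-values measure the spread between these mice within a library.

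S100 proteins are small calcium-binding proteins with paired EF-hand motifs that mostly work as dimers. S100A8 and S100A9 form calprotectin, an abundant protein of the neutrophil cytosol that is released in inflammation and acts through receptors such as TLR4. S100A4 and S100A6 are linked to cell motility and growth, S100A10 and S100A11 bind annexins at membranes, and S100A13 takes part in the release of proteins that lack a signal peptide.

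The DOCA-salt library held 7600 barcodes and 29764964 RNA UMIs (unique molecules), and the sham library 4359 barcodes and 13304511 UMIs. Of these, 6831 DOCA-salt and 4044 sham cells were used, with medians of 3225 and 2806 UMIs, and 760 to 2153 cells per DOCA-salt mouse against 620 to 1266 per sham mouse. The libraries shared 41 cell barcodes. Clustering without the S100 genes gave 23 clusters, which markers grouped into 10 named leukocyte classes, while 1141 cells (10.49%) stayed unnamed. The classes ran from B-like cells (2731 DOCA-salt and 2027 sham cells) to gamma-delta T-like cells (49 and 6), and the neutrophil-like class held 152 DOCA-salt cells but only 13 sham cells. A cluster was named only where at least 3 markers of its class were counted, so the names follow from that rule. The cDC2-like cluster also counted the cDC1 markers Clec9a, Wdfy4 and Irf8. The ILC2-like cluster counted Gata3, Il1rl1 and Areg, and also the T markers Trbc1, Trbc2 and Bcl11b. Levels are in CPM, the gene's share of all RNA UMIs of a class in a mouse scaled to a total of 1000000, a scale on which fewer molecules per cell and fewer cells bearing the gene cannot be told apart.

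All 7 genes lie on mouse chromosome 3 (GRCm38). S100a13 (chr3:90514435-90524581), S100a4 (chr3:90603771-90606045), S100a6 (chr3:90612882-90624181) and S100a8 (chr3:90668978-90670035) lie on the plus strand, S100a9 (chr3:90692632-90695721) lies on the minus strand, and S100a11 (chr3:93520488-93526287) and S100a10 (chr3:93555080-93564643) follow farther along on the plus strand. The promoter windows of 4 members are shown. S100a8 and S100a9 UMIs came mostly from neutrophil-like cells, and S100a4 and S100a6 had been seen to differ between the groups. Each window runs from 250 bases before to 50 bases after the gene's start (RefSeq, GRCm38.p6), written 5′ to 3′ along the gene. Capitals mark TATAAA, the letters of a TATA box, and GAGGAA, the core bound by PU.1, a transcription factor of myeloid cells. All motifs were searched on both strands, so GAGGAA can appear as TTCCTC.
S100a8, chr3:90668821-90669120, plus strand: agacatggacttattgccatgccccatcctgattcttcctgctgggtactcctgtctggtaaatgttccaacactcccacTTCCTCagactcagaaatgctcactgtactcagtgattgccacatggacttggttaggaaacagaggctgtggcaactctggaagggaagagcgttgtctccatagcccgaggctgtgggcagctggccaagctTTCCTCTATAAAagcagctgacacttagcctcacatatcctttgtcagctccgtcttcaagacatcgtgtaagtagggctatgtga
S100a9, chr3:90695672-90695971, minus strand: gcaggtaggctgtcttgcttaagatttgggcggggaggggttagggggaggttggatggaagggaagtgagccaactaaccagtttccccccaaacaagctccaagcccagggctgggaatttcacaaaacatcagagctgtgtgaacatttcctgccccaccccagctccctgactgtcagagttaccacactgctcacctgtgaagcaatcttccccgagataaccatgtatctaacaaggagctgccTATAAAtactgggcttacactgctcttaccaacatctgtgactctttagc
S100a4, chr3:90603520-90603819, plus strand: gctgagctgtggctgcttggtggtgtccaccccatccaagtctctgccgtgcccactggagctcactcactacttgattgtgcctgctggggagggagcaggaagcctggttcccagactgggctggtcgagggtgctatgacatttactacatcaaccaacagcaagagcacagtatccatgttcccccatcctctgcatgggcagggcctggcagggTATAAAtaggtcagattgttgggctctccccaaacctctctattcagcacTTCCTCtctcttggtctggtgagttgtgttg
S100a6, chr3:90612644-90612943, plus strand: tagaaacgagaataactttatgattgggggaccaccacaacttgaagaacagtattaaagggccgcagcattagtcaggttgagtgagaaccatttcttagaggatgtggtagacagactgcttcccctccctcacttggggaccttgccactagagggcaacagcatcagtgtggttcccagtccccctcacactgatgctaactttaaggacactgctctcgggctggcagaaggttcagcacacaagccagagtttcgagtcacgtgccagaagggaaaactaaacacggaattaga

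TATAAA stood once in each of the S100a8, S100a9 and S100a4 windows, while 13.62% of all 32851 promoter windows of 300 bases held it. It lay close before the start that the window was built on in S100a8 and S100a4, and at that start itself in S100a9. For S100a8 the window's start lies farther along than the first base of the gene position given above, and TATAAA lies between them. GAGGAA matched 2 times in S100a8, with one match directly before TATAAA and sharing no base with it, and 1 time in S100a4 and in S100a11, against 28.28% of all windows with a match. TGANTCA, the letters bound by AP-1, matched 2 times in S100a11 and in no other member, against 7.808% of all windows. S100a6 and S100a13 held none of these letters. A window was matched for 6 of the 7 members, S100a10 being the other. These matches describe the letters only.

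Each member had its own distribution over leukocytes. S100a8 and S100a9 UMIs came mostly from neutrophil-like cells, S100a11 peaked there too, S100a6 was high in neutrophil-like, gamma-delta T-like and classical monocyte-like cells, S100a4 was high in gamma-delta T-like and classical monocyte-like cells but low in neutrophil-like cells, and S100a10 and S100a13 were highest in gamma-delta T-like and NK-like cells. S100 genes were kept out of the genes used for clustering, but the classes come from the same cells, so these orders are a description with no test.

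**Figure D1:**
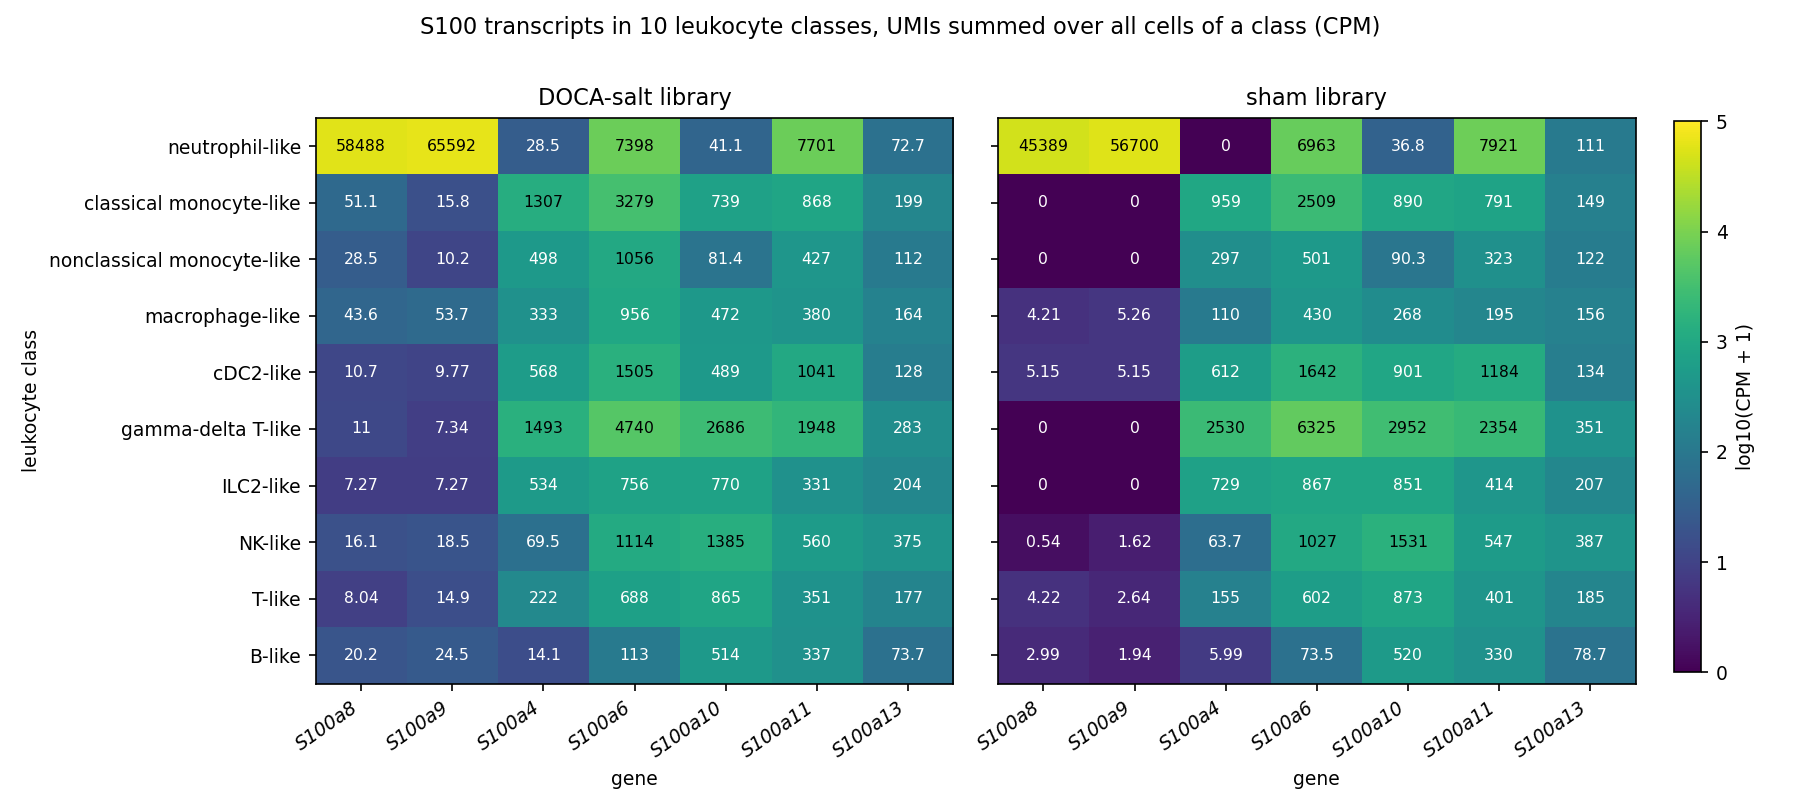
Level of each member (columns) in each leukocyte class (rows), in CPM of the UMIs summed over all cells of the class, for the DOCA-salt library on the left and the sham library on the right; the colour follows log10(CPM + 1). S100a8 and S100a9 reach 45389 CPM or more in neutrophil-like cells of both libraries and 53.7 CPM or less in other classes, while S100a10 is below 100 CPM in neutrophil-like and nonclassical monocyte-like cells and above 200 CPM in every other class.

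S100a8 averaged 54579 ± 15009 CPM in neutrophil-like cells of DOCA-salt mice (SD, n = 4) and 54174 ± 21416 CPM in those of sham mice (SD, n = 2, the mice with at least 3 such cells). Per mouse S100a8 was 35027, 50763, 67980 and 64545 CPM in DOCA-salt mice, against 69317, 39030, 38302 and 4240 CPM in sham mice, the last 2 on 1 and 2 cells. S100a9, its partner, averaged 62145 ± 15368 CPM in DOCA-salt mice and 66722 ± 28177 CPM in sham mice. The groups overlapped and were not tested, since a test was run only where 3 mice of each group had at least 3 cells of the class. S100a11 averaged 7350 ± 1140 CPM in DOCA-salt neutrophil-like cells, ahead of gamma-delta T-like cells at 2059 ± 475 CPM, cDC2-like cells at 951 ± 115 CPM and classical monocyte-like cells at 897 ± 98.4 CPM. The last 2 overlapped between mice. The remaining classes lay between 302 and 537 CPM.

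S100a6 followed the order neutrophil-like (6960 ± 2189 CPM), gamma-delta T-like (5171 ± 1083 CPM), classical monocyte-like (3400 ± 346 CPM) and cDC2-like cells (1506 ± 417 CPM) in DOCA-salt mice, of which neutrophil-like and gamma-delta T-like cells overlapped. NK-like cells at 1104 ± 25.6 CPM and nonclassical monocyte-like cells at 1089 ± 164 CPM came next and overlapped each other and cDC2-like cells, and B-like cells were lowest at 150 ± 126 CPM. S100a4 took another order. It averaged 1738 ± 542 CPM in gamma-delta T-like and 1337 ± 125 CPM in classical monocyte-like cells of DOCA-salt mice, whose ranges overlapped, and 603 ± 280, 518 ± 106 and 505 ± 131 CPM in ILC2-like, nonclassical monocyte-like and cDC2-like cells, which overlapped one another. In neutrophil-like cells, where S100a6 was highest, S100a4 averaged 28.7 ± 10.6 CPM in DOCA-salt mice and had 0 of 27143 UMIs in sham mice, which allows up to 110.5 CPM.

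S100a10 averaged 2570 ± 800 CPM in gamma-delta T-like cells of DOCA-salt mice, then 1365 ± 108 CPM in NK-like and 834 ± 157 CPM in T-like cells. B-like cells, low in S100a4 and S100a6, held S100a10 at 514 ± 35.8 CPM in DOCA-salt mice and 517 ± 18.2 CPM in sham mice. The low end was 80.2 ± 32.1 CPM in nonclassical monocyte-like and 38.9 ± 10.9 CPM in neutrophil-like cells of DOCA-salt mice, and the next lowest class, macrophage-like cells, averaged 444 ± 95.7 CPM. S100a13 was the evenest member, with means between 74.1 ± 2.28 CPM in B-like and 375 ± 18.9 CPM in NK-like cells of DOCA-salt mice. The sham levels of S100a13 in those classes were 81.1 ± 10.1 and 365 ± 55.9 CPM.

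Outside neutrophil-like cells, S100a8 and S100a9 UMIs were few but spread over every large class of the DOCA-salt library. A cell with at least 1 UMI of either gene made up 12.05% of B-like, 11.05% of NK-like, 11.50% of T-like and 11.9% of macrophage-like cells in the DOCA-salt library. The same shares were 1.28%, 0.752%, 1.41% and 1.32% in the sham library. Median depths in the same order were 3008, 3363, 5438 and 3887 UMIs per cell in the DOCA-salt library and 2705, 3220, 4243 and 2922 in the sham library. Depths being unequal, cells were also thinned to 1000 UMIs. Cells with an S100a8 UMI then made up 1.81% of B-like (1.34% to 2.39%), 1.72% of NK-like, 0.773% of T-like (0.311% to 1.59%) and 1.92% of macrophage-like cells in the DOCA-salt library, and 0.597%, 0%, 0.488% and 0.775% in the sham library. For S100a8, T-like cells were the lowest of the 4 classes in the DOCA-salt library, though their thinned interval overlapped that of B-like cells. They were lowest also in CPM, with 8.04 CPM of S100a8 beside 20.2 CPM in B-like cells. Shares of cells with an S100a9 UMI took another order in that library. Thinned, NK-like cells were lowest at 1.55%, below T-like cells at 2.21%. Unthinned, T-like cells were the highest of the 4 classes at 7.67%. In CPM of S100a9, T-like cells were again the lowest, at 14.9 CPM. Neutrophil-like cells held 96.7% of all S100a8 UMIs and 96.7% of all S100a9 UMIs of the DOCA-salt library, against 91.6% and 93.3% of the sham library.

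The ratio of the 2 genes was compared between classes too. S100a8 made up 47.1% of both genes' UMIs in DOCA-salt neutrophil-like cells (95% Clopper-Pearson interval 46.6% to 47.6%), 45.2% in B-like cells (40.2% to 50.3%), 46.5% in NK-like cells (38.5% to 54.6%) and 44.8% in macrophage-like cells (39.4% to 50.4%). These intervals, which cover counting error only, overlapped. T-like cells were lower at 35% (26.5% to 44.2%), and classical monocyte-like and nonclassical monocyte-like cells were higher at 76.4% (64.9% to 85.6%) and 73.7% (48.8% to 90.9%), the last on 14 S100a8 and 5 S100a9 UMIs. The classical monocyte-like value rested on 2 cells, without which it was 52.9% (35.1% to 70.2%) on 18 S100a8 and 16 S100a9 UMIs. In the sham library the share was 44.5% in neutrophil-like cells (42.6% to 46.3%) and 60.7% in B-like cells (40.6% to 78.5%).

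A few cells carried much of what macrophage-like and classical monocyte-like cells held. In DOCA-salt macrophage-like cells the top 10 of 722 cells held 75.6% of the UMIs of both genes, with 110 in 1 cell. Without cells that had at least 10 UMIs of both genes together, an alternative added after seeing the data, macrophage-like cells had 13.4 CPM of S100a8 and 15.8 CPM of S100a9, against 43.6 and 53.7 CPM with them. In the DOCA-salt library classical monocyte-like cells had 17.1 CPM of S100a8 without 2 such cells, against 51.1 CPM with them. After that step B-like cells had 19.8 CPM of S100a8 and 22.5 CPM of S100a9, and NK-like cells 16.1 and 18.5 CPM. T-like cells had 8.04 CPM of S100a8 and 14.9 CPM of S100a9, cDC2-like cells 10.7 and 9.77 CPM, ILC2-like cells 7.27 CPM of each, gamma-delta T-like cells 11.01 and 7.34 CPM, and nonclassical monocyte-like cells 28.5 and 10.2 CPM. The named classes other than neutrophil-like therefore lay between 7.27 and 28.5 CPM for S100a8 and between 7.27 and 22.5 CPM for S100a9, several of them on few UMIs. Unnamed cells of the DOCA-salt library lay higher, at 31.7 CPM of S100a8 and 42.6 CPM of S100a9 after that step, against 99.5 and 100.4 CPM before it. Unnamed cells of the sham library had 2.74 and 4.56 CPM after it, against 74.3 and 78.0 CPM before it. What the removed cells are was not tested. Sham classical monocyte-like cells had 0 of 160591 UMIs of either gene, which allows up to 18.7 CPM, and sham nonclassical monocyte-like cells 0 of 343299, which allows up to 8.74 CPM.

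The share of neutrophil-like cells was set beside these values, mouse by mouse. It was 0.511%, 2.82%, 4.61% and 2.61% of cells in the 4 DOCA-salt mice, against 0.722%, 0.252%, 0.161% and 0.158% in the 4 sham mice. DOCA-salt mouse 1 lay below sham mouse 1, and the other 3 DOCA-salt mice lay above every sham mouse. The mean was 2.63 ± 1.68% in DOCA-salt mice and 0.323 ± 0.270% in sham mice, a difference that did not pass a two-sided exact permutation test (p = 0.0571, where 0.0286 is the smallest possible). S100a8 in B-like cells did not follow that order. DOCA-salt mouse 1, below sham mouse 1 in its share, had 16.2 CPM of S100a8 in B-like cells, against 4.33 CPM in sham mouse 1, and DOCA-salt mouse 3, with the highest share, had 20.1 CPM, against 24.6 CPM in DOCA-salt mouse 4. The 4 mice of a group shared 1 library, and RNA free of cells would be shared by all of them. The order of mice therefore cannot show the part of neutrophil-like cells in the B-like values, which was not tested.

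**Figure D2:**
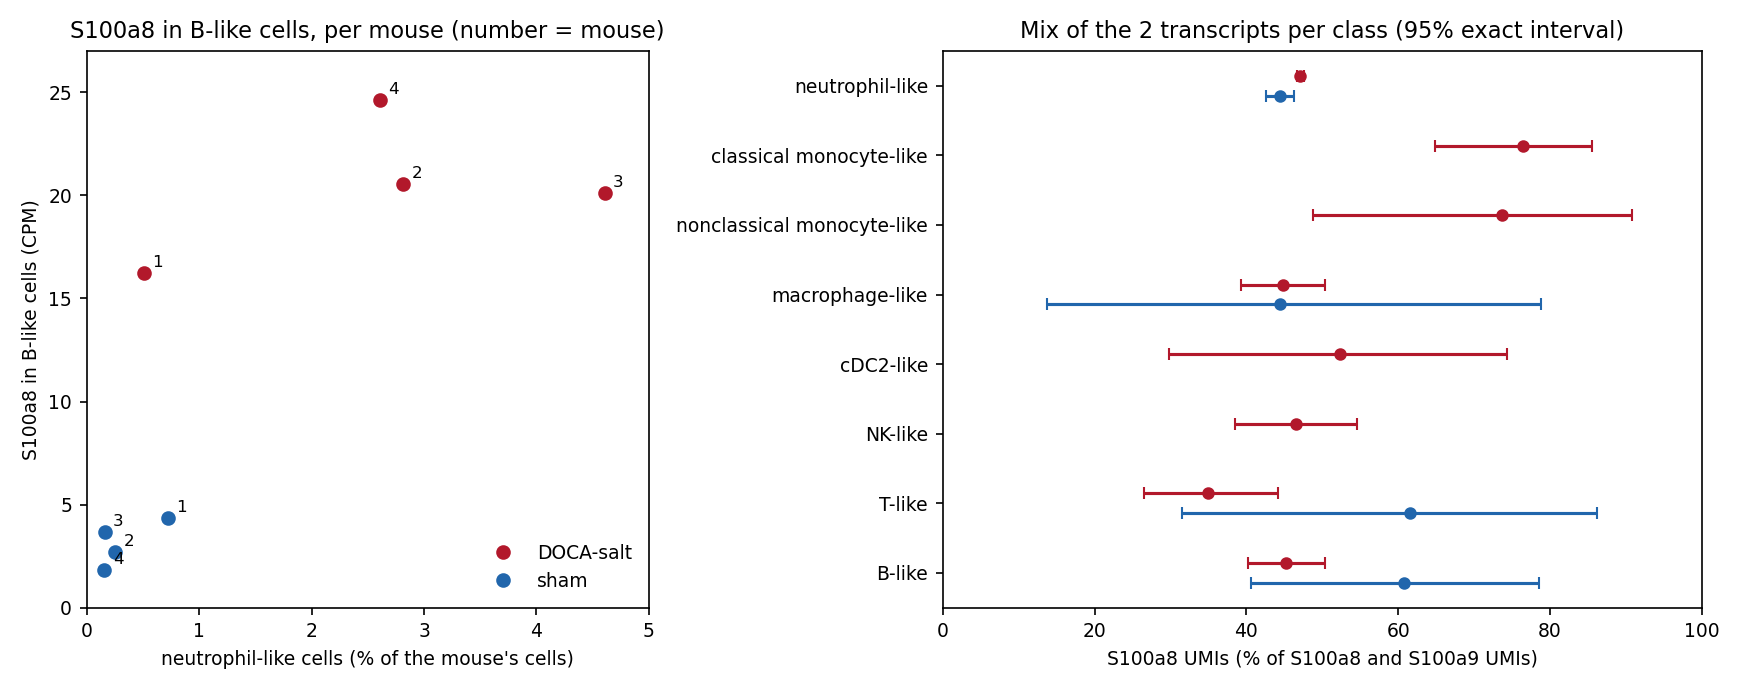
Left, S100a8 in B-like cells (CPM) against the share of neutrophil-like cells (percent of the mouse's cells), with 1 numbered point per mouse; right, S100a8 UMIs as a percent of the UMIs of both genes in each class with at least 5 of them, with the 95% Clopper-Pearson interval. All 4 DOCA-salt mice have at least 16.2 CPM and all sham mice 4.33 CPM or less, DOCA-salt mouse 1 has a lower share (0.511%) than sham mouse 1 (0.722%), and the intervals of DOCA-salt B-like, NK-like and macrophage-like cells overlap that of neutrophil-like cells.

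In B-like cells the calprotectin pair, low in both groups, stood farthest apart between them. S100a8 had 16.2, 20.5, 20.1 and 24.6 CPM in the 4 DOCA-salt mice, against 4.33, 2.70, 3.67 and 1.85 CPM in the 4 sham mice. S100a9 had 18.7, 26.4, 17.7 and 31.5 CPM in DOCA-salt mice, against 2.17, 2.70, 3.67 and 0 CPM in sham mice. For both genes every DOCA-salt mouse lay above every sham mouse. The log2 change was 2.74 (SE 0.284) for S100a8 and 3.61 (SE 0.411) for S100a9, on 17 and 11 sham UMIs in all. Both passed the filter on low counts, which asked for 5.757 CPM in 4 mice, through DOCA-salt mice only: all 4 DOCA-salt mice and 0 sham mice reached that level. A gene that passes in this way has to differ, so no p is given for the pair. Of the 5 members that passed through mice of both groups, edgeR's quasi-likelihood test with Benjamini-Hochberg adjustment over 8599 genes called 0, beside 1.6% of all genes called and 8.45% whose groups of mice did not overlap. At an unadjusted p under 0.05 there was 1, S100a4, beside 13.2% of all genes, and DESeq2 called 0 of the 4 for which it gave an adjusted p.

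Markers of other cells were summed in B-like cells as well, and the lists did not all go the same way. The summed level of 10 neutrophil markers in B-like cells was 8.81 to 17.7 CPM in DOCA-salt mice, with none of the 10 at 0, against 0 to 5.41 CPM in sham mice, where Cxcr2, Mmp9, Ly6g and Trem1 were at 0. The 6 classical monocyte markers summed to 45.4 to 50.8 CPM in DOCA-salt mice and 20.9 to 36.3 CPM in sham mice. Among them Chil3, a chitinase-like protein of recruited monocytes, averaged 10.3 CPM in DOCA-salt and 0.289 CPM in sham mice, and Ccr2, a chemokine receptor, 9.995 CPM in DOCA-salt and 3.04 CPM in sham mice. Ly6c2 averaged 9.71 CPM in DOCA-salt and 9.97 CPM in sham mice, and F13a1 17.1 CPM in DOCA-salt and 14.1 CPM in sham mice. The 12 macrophage markers summed to 223 to 300.1 CPM in DOCA-salt mice and 213 to 258 CPM in sham mice, which overlapped. The 5 erythroid markers, haemoglobins among them, summed to 1.18 to 24.9 CPM in B-like cells of DOCA-salt mice and 46.1 to 11367 CPM in those of sham mice. Their part in the S100a8 and S100a9 values was not tested.

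The remaining members of B-like cells differed less. S100a4 had 14.1, 11.1, 36.6 and 9.68 CPM in DOCA-salt mice, against 2.89, 5.41, 9.79 and 7.38 CPM in sham mice. The groups overlapped only where sham mouse 3 passed DOCA-salt mouse 4, and 17 of the 31 UMIs of DOCA-salt mouse 3 came from 1 cell. The log2 change was 1.29 (SE 0.425, adjusted p = 0.178), and S100a4 was called where the filter on low counts was left out (adjusted p = 0.0221). S100a6 had 93.8, 111, 336 and 59.3 CPM in DOCA-salt mice, against 46.9, 48.7, 229 and 46.1 CPM in sham mice (log2 change 0.72, SE 0.534, adjusted p = 0.640). Without DOCA-salt mouse 3 the log2 change was 0.13, and without sham mouse 3 it was 1.51, neither called. Mouse 3 was the highest of both groups, and in the sham mouse 1 cell gave 105 of its 187 UMIs. S100a10, S100a11 and S100a13 had log2 changes of 0.00, 0.04 and -0.10 in B-like cells, with adjusted p from 0.758 to 0.9999.

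Scaling the neutrophil-like and macrophage-like profiles to B-like cells put sizes on these levels. Scaled so that S100a8 matched, the neutrophil-like profile of the DOCA-salt library gave B-like cells 2.56 CPM of S100a6 and 0.00985 CPM of S100a4, where 113 and 14.1 CPM were measured. Scaled by C1qa, a complement gene of macrophages, the macrophage-like profile gave 10.48 CPM of S100a6 and 3.65 CPM of S100a4. The neutrophil-like profile itself held only 28.5 CPM of S100a4. The classical monocyte-like profile, with 3279 CPM of S100a6 and 1307 CPM of S100a4 in that library, was not scaled, nor was that of gamma-delta T-like cells. The source of S100a4 and S100a6 in B-like cells was not tested.

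B-like cells were made of several clusters, which were compared one by one after seeing the data. In the cluster led by Cr2, a complement receptor of B cells, S100a6 had 73.6, 143, 124 and 66.6 CPM in DOCA-salt mice, against 33.5, 27.2, 51.2 and 20.7 CPM in sham mice. Every DOCA-salt mouse lay above every sham mouse, and S100a6 rose by 1.71 on the log2 scale (SE 0.319, edgeR adjusted p = 0.0174), beside 0.414% of genes called and 5.41% without overlap in that cluster. Without sham mouse 2 or sham mouse 4 that call was lost (adjusted p = 0.103 and 0.1), and over the 8 mice left out in turn the log2 change lay between 1.39 and 1.91. The 10 neutrophil markers summed to 10.5 to 23.7 CPM in that cluster of DOCA-salt mice and 0 to 1.95 CPM in that of sham mice, the 12 macrophage markers to 233 to 296 CPM in DOCA-salt and 199 to 298 CPM in sham mice, and their part in S100a6 was not tested. In the other large B-like clusters S100a6 did not pass: its log2 change was 0.45 in the cluster led by Cd83, an activation marker (adjusted p = 0.743), and 0.60 in the one led by Fcer2a, an IgE receptor (adjusted p = 0.718), where edgeR called 0.221% and 0.29% of genes. The difference between the clusters was not tested.

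The B-like cluster led by Fam129c and Iglv1, the second a lambda light chain segment, held the highest S100a6 of B-like cells. It made up 4.26 ± 0.391% of B-like cells in DOCA-salt mice and 12.9 ± 2.22% in sham mice. S100a6 there had 540, 502, 2483 and 163 CPM in DOCA-salt mice, against 151, 54.7, 1056 and 39.96 CPM in sham mice. The groups overlapped, and the log2 change of 1.62 did not pass (SE 0.971, adjusted p = 0.482). Cells with an S100a6 UMI made up 36.8%, 48.3%, 61.5% and 20% of the cluster in DOCA-salt mice, against 7.69%, 8.75%, 10.6% and 5.26% in sham mice. These shares did not overlap, on 13 to 38 cells per DOCA-salt mouse and 47 to 80 per sham mouse. Median depths were 4070 UMIs in DOCA-salt and 2854 UMIs in sham cells, and these cells were not thinned, so depth enters the shares. How many of all genes lack overlap in such shares was not counted. S100a10 had 807, 936, 1075 and 719 CPM in DOCA-salt mice, against 655, 437, 636 and 551 CPM in sham mice. The groups did not overlap, but the log2 change of 0.73 did not pass (SE 0.189, adjusted p = 0.0944), and 0.576% of genes were called and 10.0% did not overlap in the cluster. The antibody against CD44, a surface protein of activated lymphocytes, averaged 1213, 1631, 2643 and 1113 counts per cell of this cluster in DOCA-salt mice, against 877, 966, 879 and 761 in sham mice.

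For S100a4, S100a6, S100a10, S100a11 and S100a13, T-like cells had 1 cluster above the rest in both groups. In the cluster led by Gzmk, a granzyme of effector T cells, S100a4 averaged 691 ± 171 CPM in DOCA-salt mice and 418 ± 195 CPM in sham mice. The cluster led by Cd4 had 17.2 CPM in DOCA-salt and 10.3 CPM in sham mice, and the one led by Cd8b1 had 13.02 CPM in DOCA-salt and 11.4 CPM in sham mice. S100a6 averaged 2039 CPM in the Gzmk cluster of DOCA-salt mice and 1967 CPM in that of sham mice, where the Cd4 cluster had 23.7 CPM in DOCA-salt and 27.2 CPM in sham mice. S100a10 averaged 1884 CPM in DOCA-salt and 1872 CPM in sham mice in the Gzmk cluster, and 303 CPM in DOCA-salt and 296 CPM in sham mice in the Cd4 cluster. S100a11 averaged 780 CPM in DOCA-salt and 863 CPM in sham mice in the Gzmk cluster. It averaged 106 and 124 CPM in the Cd4 cluster and 159 and 273 CPM in the Cd8b1 cluster, in the same order. S100a13 averaged 317 CPM in DOCA-salt and 352 CPM in sham mice in the Gzmk cluster. In the Cd4 cluster it averaged 101 and 107 CPM, and in the Cd8b1 cluster 119 and 112 CPM. The CD44 antibody was highest in the Gzmk cluster, at 2574 counts per cell in DOCA-salt and 2198 in sham mice, where the Cd4 cluster had 934 in DOCA-salt and 826 in sham mice.

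Across whole T-like cells S100a4 had 332, 185, 199 and 158 CPM in DOCA-salt mice, against 100.4, 107, 73.9 and 242 CPM in sham mice. Sham mouse 4 lay above 3 of the 4 DOCA-salt mice, and the other 3 sham mice lay below all of them. The log2 change of 0.65 did not pass (SE 0.271, adjusted p = 0.516), and other choices moved it both ways. It was 1.21 without sham mouse 4 (adjusted p = 0.0320), 0.37 without DOCA-salt mouse 1 (adjusted p = 0.801) and 0.08 with libraries clustered apart (adjusted p = 0.969). Without the filter on low counts it was 0.68 and called (adjusted p = 2.696e-05). The Gzmk cluster made up 29.2 ± 6.31% of T-like cells in DOCA-salt mice and 22.5 ± 2.41% in sham mice, and its part in the T-like value was not tested. Within that cluster the log2 change of S100a4 was 0.62 (unadjusted p = 0.0321, adjusted p = 0.9998 by edgeR), where 0.0% of genes were called. In the Cd8b1 cluster S100a11 fell by 0.69 on the log2 scale (SE 0.154, adjusted p = 0.0239), beside 0.915% of genes called and 6.23% without overlap. Its values there were 161, 161, 119 and 195 CPM in DOCA-salt mice, against 217, 294, 317 and 265 CPM in sham mice, with no overlap. The call was lost without DOCA-salt mouse 2 or 3 or sham mouse 2, 3 or 4, with log2 changes from -0.81 to -0.60 and adjusted p up to 0.126 over the 8 mice left out. The 12 macrophage markers summed to 178 to 473 CPM there in DOCA-salt mice and 399.5 to 804 CPM in sham mice, which overlapped, and of 4 tested 1 was called lower. The 8 B markers summed to 67.7 to 75.6 CPM in DOCA-salt and 65.4 to 136 CPM in sham mice. Their part in S100a11 was not tested.

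**Figure D3:**
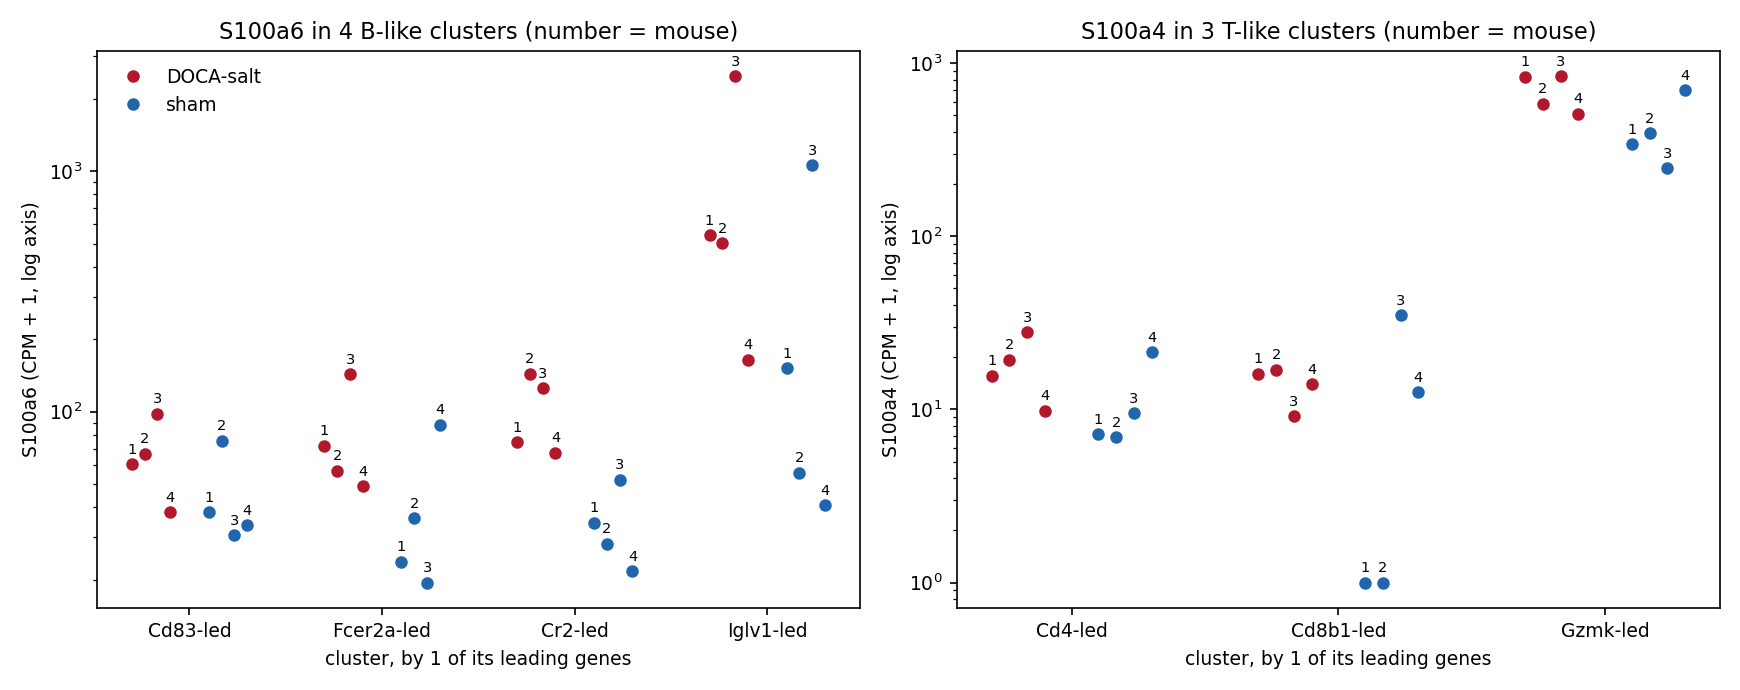
S100a6 in 4 B-like clusters (left) and S100a4 in 3 T-like clusters (right), as CPM + 1 on a log axis, with 1 numbered point per mouse and DOCA-salt left of sham. The Gzmk-led cluster stands above the other T-like clusters in both groups (508 to 841 CPM of S100a4 in DOCA-salt mice and 246 to 696 CPM in sham mice), and in the Cr2-led B-like cluster the groups of mice do not overlap.

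In T-like and NK-like cells no member was called by edgeR, beside 0.411% and 0.972% of all genes. At an unadjusted p under 0.05 there was 1 of 5 tested members in each class, S100a4 in T-like and S100a10 in NK-like cells, where 8.22% and 9.29% of all genes had such a p, and DESeq2 called 0 in both. S100a10 had 1494, 1372, 1229 and 1363 CPM in NK-like cells of DOCA-salt mice, against 1447, 1553, 1373 and 1599 CPM in those of sham mice, and the groups overlapped (log2 change -0.17, SE 0.0748, adjusted p = 0.424). The other 4 members tested in NK-like cells had log2 changes between -0.04 and 0.10. S100a8 and S100a9 passed the filter on low counts in B-like cells only, so neither was tested in any other class. In NK-like cells S100a8 had 18.5, 19.7, 19.3 and 12.1 CPM in DOCA-salt mice, against 0, 2.33, 0 and 0 CPM in sham mice, and S100a9 averaged 19.5 ± 4.92 CPM in DOCA-salt and 1.79 ± 2.25 CPM in sham mice. With 1 mouse left out they passed the filter in some fits, each time through DOCA-salt mice only, so nothing is read from those fits. In B-like cells, for comparison, DOCA-salt mice had 16.2 to 24.6 CPM of S100a8 and sham mice 1.85 to 4.33 CPM. ILC2-like cells gave 4 tested members, all but S100a8, S100a9 and S100a13, with log2 changes from -0.30 to -0.06, of which 0 were called by edgeR, 0 had an unadjusted p under 0.05 and 0 were called by DESeq2, beside 0.0% of genes called and 8.85% with such a p.

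The macrophage-like and nonclassical monocyte-like classes are those in which members had been seen to differ before, and their values follow as a description. S100a4, S100a6, S100a10 and S100a11 were all higher in the mean of DOCA-salt macrophage-like cells than of sham ones, and S100a6, S100a4 and S100a11 were in nonclassical monocyte-like cells. S100a13 differed little in both classes. The median log2 change of the 5 members measured was 0.80 in macrophage-like and 0.45 in nonclassical monocyte-like cells, where all tested genes had medians of 0.00395 and -0.000102. The members' medians include the values on which S100a4 and S100a6 were chosen, so nothing is read from them.

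In macrophage-like cells S100a4 had 378, 309, 276 and 245 CPM in DOCA-salt mice, against 123, 161, 39.5 and 91.4 CPM in sham mice. Every DOCA-salt mouse lay above every sham mouse, and the log2 change was 1.49 (SE 0.267). Cells with an S100a4 UMI made up 47.6%, 28.7%, 27.1% and 25.8% of macrophage-like cells in DOCA-salt mice, against 11.4%, 11.1%, 7.94% and 8.33% in sham mice. Thinned to 1000 UMIs per cell, because the median depth was 3887 in DOCA-salt and 2922 in sham macrophage-like cells, the share was 17.8% of 678 DOCA-salt cells (15.04% to 20.9%) and 5.81% of 258 sham cells (3.29% to 9.41%). Before thinning it was 36.7% and 9.60%, and 44 cells of each library were too shallow. B-like cells, which should hold little S100a4, gave 3.59% and 1.43% unthinned and 1.14% and 0.697% thinned, at median depths of 3008 and 2705 UMIs.

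S100a6 had 1041, 961, 626 and 795 CPM in macrophage-like cells of DOCA-salt mice, against 509, 698, 39.5 and 331 CPM in those of sham mice. Sham mouse 2 lay above DOCA-salt mouse 3, sham mouse 3 had 7 UMIs in 3 of 63 cells, and the log2 change was 1.09 (SE 0.399). S100a10 had 471, 554, 323 and 428 CPM in DOCA-salt mice, against 228, 286, 141 and 334 CPM in sham mice (log2 change 0.80, SE 0.219). Only sham mouse 4 reached into the DOCA-salt range of S100a10. S100a11 had 463, 295, 159 and 290 CPM in DOCA-salt mice, against 176, 240, 147 and 180 CPM in sham mice (log2 change 0.71, SE 0.253), with DOCA-salt mouse 3 inside the sham range. S100a13 had a log2 change of -0.08 (SE 0.204). Of 5 tested members edgeR called 1, S100a4, beside 0.277% of all 4698 genes called and 5.39% without overlap, from which nothing is read here because S100a4 was chosen on this contrast. Without DOCA-salt mouse 2, or without sham mouse 1, 3 or 4, S100a4 was not called, with log2 changes from 1.26 to 1.86 over the 8 mice left out in turn.

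The groups also differed in S100a4 within the main macrophage-like cluster. The cluster led by Mrc1, the mannose receptor of resident macrophages, made up 84.1 ± 11.9% of the class in DOCA-salt mice and 83.0 ± 0.907% in sham mice, and S100a4 averaged 301 CPM there in DOCA-salt mice against 90.5 CPM in sham mice (log2 change 1.61). In the smaller cluster led by Ccl8, a chemokine, S100a4 averaged 291 ± 204 CPM in DOCA-salt and 292 ± 308 CPM in sham mice, and the difference between the clusters was not tested. Marker sums of the whole class were set beside these values. The summed level of the 12 macrophage markers was 19615 to 25747 CPM in DOCA-salt mice, against 20672 to 26843 CPM in sham mice, and that of the 6 classical monocyte markers was 1607 to 1983 CPM in DOCA-salt mice, against 757 to 1493 CPM in sham mice, with none of the 6 at 0 in either group. Among these, Chil3 averaged 69.5 CPM in DOCA-salt and 1.46 CPM in sham macrophage-like cells. Ccr2 averaged 482 CPM in DOCA-salt and 278.5 CPM in sham mice, F13a1 1066 and 766 CPM, and Fn1 127 and 69.6 CPM, none of them called. Their part in the values of the members was not tested.

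Nonclassical monocyte-like cells held S100a6 at 1209, 870, 1222 and 1058 CPM in DOCA-salt mice, against 512, 457, 693 and 349 CPM in sham mice. The groups did not overlap, and the log2 change was 1.09 (SE 0.181). Cells with an S100a6 UMI made up 75.0% of 116 DOCA-salt cells and 55.0% of 109 sham cells, and 52.2% and 29.3% after thinning, where B-like cells gave 5.95% and 3.73%. S100a4 had 469, 435, 673 and 496 CPM in DOCA-salt mice, against 321, 134, 597 and 239 CPM in sham mice (log2 change 0.72, SE 0.262), and sham mouse 3 lay above 3 of the 4 DOCA-salt mice. S100a11 had 480, 482, 494 and 319 CPM in DOCA-salt mice, against 330, 403, 258 and 220 CPM in sham mice (log2 change 0.45, SE 0.214). DOCA-salt mouse 4 alone fell inside the sham range. S100a13 and S100a10 had log2 changes of -0.13 and -0.18.

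Of the 5 members tested in nonclassical monocyte-like cells edgeR called 1, S100a6, beside 1.37% of all 1748 genes called and 6.58% without overlap, and nothing is read from it because S100a6 was chosen there. The 6 classical monocyte markers summed to 388 to 988 CPM in these cells of DOCA-salt mice, against 44.8 to 226 CPM in sham mice, where Vcan was at 0. Among them Chil3 averaged 434 CPM in DOCA-salt and 16.7 CPM in sham mice. Ccr2 averaged 121 CPM in DOCA-salt and 53.1 CPM in sham mice and was not called. The remaining markers of that list did not pass the filter on low counts in these cells. The 7 nonclassical monocyte markers summed to 4132 to 5065 CPM in DOCA-salt and 4932 to 5726 CPM in sham mice. Whether they bear on S100a6 was not tested.

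**Figure D4:**
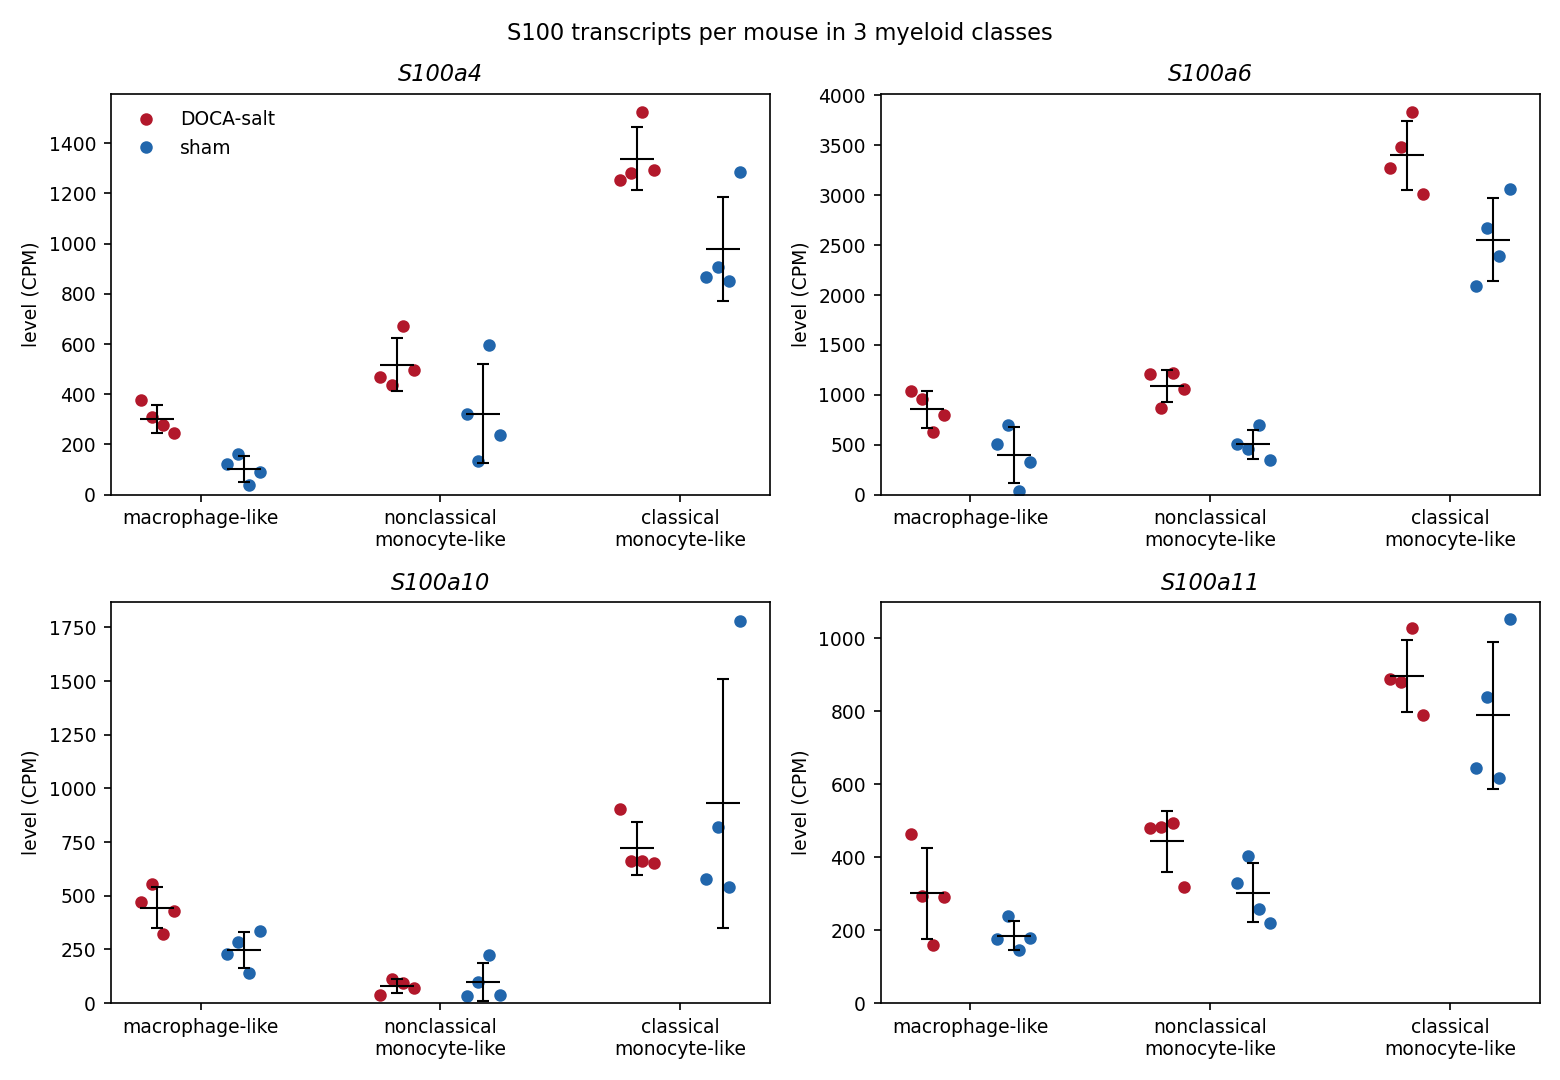
Level of S100a4, S100a6, S100a10 and S100a11 per mouse in 3 myeloid classes, in CPM, with 1 point per mouse, DOCA-salt left of sham, and bars for the mean ± SD of 4 mice. S100a4 in macrophage-like cells (245 to 378 CPM in DOCA-salt mice, against 39.5 to 161 CPM in sham mice) and S100a6 in nonclassical monocyte-like cells (870 to 1222 CPM in DOCA-salt mice, against 349 to 693 CPM in sham mice) are the values whose groups do not overlap in those 2 classes.

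Classical monocyte-like cells, on 138 DOCA-salt and 26 sham cells, had high S100a4 and S100a6 in both groups. S100a4 had 1253, 1281, 1523 and 1291 CPM in DOCA-salt mice, against 866, 908, 849.9 and 1285 CPM in sham mice. Sham mouse 4 lay above 2 DOCA-salt mice, and the other 3 sham mice lay below all 4. S100a6 had 3270, 3485, 3830 and 3014 CPM in DOCA-salt mice, against 2088, 2671, 2395 and 3065 CPM in sham mice, with an overlap at sham mouse 4. Neither was called (log2 changes 0.43 with SE 0.174 and 0.40 with SE 0.156, both with adjusted p = 0.735), and edgeR called 0 of 5 members, 2 at an unadjusted p under 0.05, with 0 called by DESeq2, beside 0.0641% of all genes called and 6.47% with such a p. The 1 gene called there was Chil3, at 3769 CPM in DOCA-salt and 216 CPM in sham mice (log2 change 4.12).

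In cDC2-like cells the members lay lower in DOCA-salt mice or close to sham, without passing the test. S100a11 had 1122, 908, 891 and 881 CPM in DOCA-salt mice, against 1158, 1219 and 1146 CPM in sham mice 1, 2 and 4, with no overlap (log2 change -0.32, adjusted p = 0.876). S100a10 had 423, 480, 488 and 716 CPM in DOCA-salt mice, against 1314, 879.6 and 462 CPM in sham mice (log2 change -0.76, SE 0.311, adjusted p = 0.876). Sham mouse 4 fell inside the DOCA-salt range. Sham mouse 3 was left out of this fit, having under 3 cDC2-like cells. No member and 0.0% of genes were called by edgeR there, 1 member and 5.1% of genes had an unadjusted p under 0.05, and DESeq2 called 0 members, while 8.57% of all genes had groups of mice that did not overlap.

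**Figure D5:**
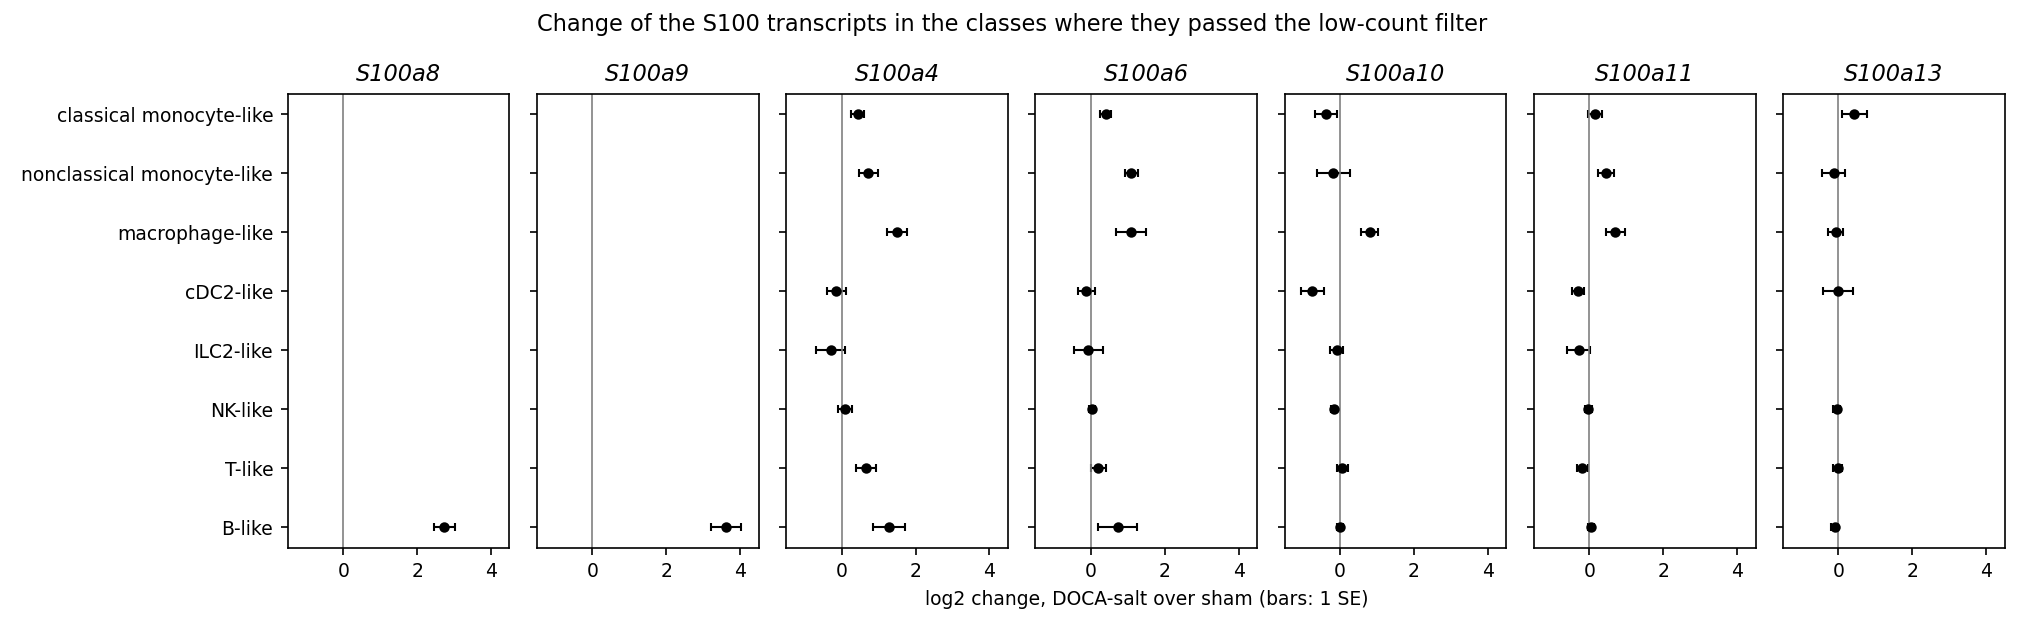
Log2 change of each member, DOCA-salt against sham, by class, with bars of 1 SE from edgeR. S100a8 and S100a9 in B-like cells reach 2.74 and 3.61, the members in macrophage-like and nonclassical monocyte-like cells lie between -0.18 and 1.49, and those in NK-like cells lie between -0.17 and 0.10.

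The partner list held 16 genes for receptors of calprotectin, annexins, other binding partners and neutrophil granule proteins. In B-like cells 11 were tested, none was called higher and 1 was called lower: Wfdc21, a WAP-domain protein listed with the granule genes, averaged 2.83 CPM in DOCA-salt and 20.5 CPM in sham mice (log2 change -2.73, SE 0.334). Wfdc21 passed the filter through sham mice only, so no p is given for it, and 1.2% of all genes were called lower. DESeq2 gave it no adjusted p and called 0 of the 7 partners for which it gave one. Wfdc21 is also among the leading genes of the Fam129c-led B-like cluster, whose share of B-like cells is given above. Anxa2, the annexin that binds S100A10, averaged 28.0 CPM in DOCA-salt and 17.2 CPM in sham B-like cells (log2 change 0.85, adjusted p = 0.0882). In the other classes edgeR called 0 of 7 to 10 tested partners, none being tested in ILC2-like cells, and DESeq2 called 0. At an unadjusted p under 0.05 there were 2 partners in macrophage-like, 2 in nonclassical monocyte-like and 1 in T-like cells, out of 10, 7 and 9 tested, beside 8.37%, 12.1% and 8.22% of all genes. In macrophage-like cells the 4 annexins were uneven, with log2 changes of 1.29 for Anxa1, 1.21 for Anxa2, 0.27 for Anxa6 and 0.16 for Anxa11. Anxa2 averaged 425 CPM in DOCA-salt and 177 CPM in sham mice, and Anxa1 156 CPM in DOCA-salt and 62.5 CPM in sham mice. Anxa6 averaged 106 CPM in DOCA-salt and 84.6 CPM in sham mice, and Anxa11 57.8 CPM in DOCA-salt and 51.4 CPM in sham mice. In nonclassical monocyte-like cells Bsg, a receptor of S100A9, averaged 206 CPM in DOCA-salt and 139 CPM in sham mice and was not called. The receptor gene Ager was not tested in any class.

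Over 20 sums, 10 classes in each of 2 libraries, the members' patterns were compared with 3061 genes by Pearson's r of log2(CPM + 10), as a description, since the sums share libraries. S100a8 was most like Retnlg (r = 0.984), a gene of neutrophils, then Lcn2 and Ptgs2, and S100a9 most like Retnlg (r = 0.990), Gm5483 and Stfa2l1. S100a4 was most like Ccr2 (r = 0.872), the chemokine receptor of recruited monocytes, then Ppt2 and Arf5, and S100a6 most like Glrx (r = 0.908), Card19 and Ndufb9. The first genes for S100a10 were Esyt1 (r = 0.936), Anxa6 and Ctbp1. Those for S100a11 were 1810058I24Rik (r = 0.894), Ndufb9 and Jaml, and those for S100a13 were Pdcd6ip (r = 0.898), Kcnab2 and Tpst2. Among the members, r was 0.994 for S100a8 with S100a9, 0.828 for S100a6 with S100a11 and 0.722 for S100a10 with S100a13, but 0.37 for S100a4 with S100a6 and -0.70 for S100a8 with S100a10.

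Of the 10 other S100 genes in the feature list, S100a1 alone passed 10 CPM in a class, with 825 UMIs and up to 80.0 CPM. It averaged 64.3 CPM in DOCA-salt and 73.7 CPM in sham macrophage-like cells (log2 change -0.20, SE 0.251). The remaining 9 had 0 to 9 UMIs each, in all cells together.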

How the data were processed

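The authors deposited raw UMI counts per gene and barcode, made with Cell Ranger (3.1.0 per the file headers); Seurat 4 and mm10 are also named per the submitters' processing notes. The deposited feature and barcode lists hold other values, that is, text names. Cells with at least 200 genes and no more than 10% mitochondrial UMIs passed (7351 DOCA-salt, 4254 sham), 278 and 100 Scrublet doublets removed, and 321 and 136 cells whose top hashtag was under 2 times the second left out. With Python 3.11.15 and scanpy 1.11.5, 2000 variable genes without S100 genes, 30 components, 15 neighbours and Leiden resolution 1.0 gave clusters. A cluster was named from at least 3 markers, each in 15% of its cells and raised by a log2 fold of 1. It stayed unnamed where at least 3 markers of another lineage each reached 40% of its cells or a comparable share of that lineage's list was counted. Shallow clusters with no such marker among their 10 leading genes stayed unnamed too. Mixed clusters were split once at 0.5. The lineage and split rules were set after the clusters were seen. The classes were rebuilt here, so their limits are not those of the study.

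UMIs were summed per mouse and class with at least 3 cells, and classes with at least 3 such mice per group were tested with edgeR 4.0.16 (R 4.3.3): filterByExpr, TMM, quasi-likelihood, Benjamini-Hochberg adjustment within the class, threshold 0.05. The SE is the log2 change divided by the square root of F. Neutrophil-like and gamma-delta T-like cells fell outside this rule. Genes that passed the filter through mice of 1 group only are given without p. The fit was tested on simulated data. Alternatives were DESeq2 1.42.0, other factors, filters and clusterings, and each mouse left out. Every member was named; partners where called; other S100 genes from 10 CPM; and the 3 genes most like each member in pattern, among genes averaging at least 50 CPM. Members and lists were chosen with earlier results of these data known. Intervals are 95% Clopper-Pearson and floors are 3 counts; both cover counting error only.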

Additional observations from a re-analysis of the deposited data

Results flagged for a closer look

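In 8 of 77 sets of 4 mice (1 member in 1 class of 1 group), a mouse stood farther from the other 3 than Dixon's 95% critical value allows; chance alone marks about 1 in 20 sets. S100a10 in classical monocyte-like cells was 902.5 CPM in DOCA-salt mouse 1, against 654 to 664 CPM in the other 3. S100a4 in the same class was 1523 CPM in DOCA-salt mouse 3, against 1253 to 1291 CPM, and 1285 CPM in sham mouse 4, against 849.9 to 908 CPM. S100a11 was 448.2 CPM in ILC2-like cells of DOCA-salt mouse 2, against 269 to 297 CPM. It was 1122 CPM in cDC2-like cells of DOCA-salt mouse 1, against 881 to 908 CPM. In nonclassical monocyte-like cells DOCA-salt mouse 4 was lowest for S100a11 at 319.1 CPM, against 479.5 to 494 CPM. In B-like cells S100a4 was 36.62 CPM in DOCA-salt mouse 3, against 9.68 to 14.1 CPM, and S100a6 was 228.9 CPM in sham mouse 3, against 46.1 to 48.7 CPM.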

How the results depend on the processing

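No paired analysis was possible because a mouse's hashtag number has meaning only inside its own library. Of 714 log2 changes recomputed, 677 kept their side of the threshold with no change of sign beyond 1 SE. In all, 60 took the other sign, 0 of them called, from main values between -0.38 and 0.20. In 14 of the 60 the shift was over 1 SE: S100a10 was 0.15 in ILC2-like and S100a6 0.12 in cDC2-like cells without the filter on low counts, S100a13 0.14 in macrophage-like cells with libraries clustered apart, S100a10 and S100a13 0.55 and 0.43 in nonclassical monocyte-like cells at Leiden resolution 0.5, S100a13 0.24, 0.51 and 0.16 in the Cd83-led, Fam129c-led and Cd8b1-led clusters alone, and S100a10 -0.14 in the Cr2-led cluster alone. With 1 mouse left out, ranges crossing 0 were -0.57 to 0.13 and -0.34 to 0.41 for S100a10 in classical and nonclassical monocyte-like cells, -0.53 to 0.11 and -0.12 to 0.31 for S100a4 in ILC2-like and NK-like cells, and -0.058 to 0.37 for S100a6 in T-like cells. Without the filter on low counts, genes called were 270 in B-like, 17 in ILC2-like, 110 in NK-like, 127 in T-like, 24 in cDC2-like, 25 in classical monocyte-like and 135 in macrophage-like cells, against 138, 0, 63, 27, 0, 1 and 13; members called were 2 in NK-like, 2 in T-like, 1 in classical monocyte-like, 6 in macrophage-like and 2 in nonclassical monocyte-like cells, against 0, 0, 0, 1 and 1. With a hashtag margin of 5, 41 genes were called in NK-like and 2 in classical monocyte-like cells, and 0 members in macrophage-like cells. With each library clustered on its own, 42 genes were called in T-like cells, and 39 genes with 3 members in macrophage-like cells. With DESeq2, 4 genes were called in classical monocyte-like cells. With the stricter cell filter, 2 genes were called in classical monocyte-like and 1 gene with 0 members in macrophage-like cells. With doublets kept, 40 genes and 2 members were called in nonclassical monocyte-like cells, and at Leiden resolution 0.5, 196 genes and 3 members. With doublets kept the neutrophil-like share differed by 2.43 percentage points (exact permutation p = 0.0286, the smallest possible), against 2.31. The cause was not tested.

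With 1 mouse left out, genes called ranged from 68 to 111 in B-like, 0 to 2 in ILC2-like, 30 to 68 in NK-like, 18 to 33 in T-like, 1 to 3 in classical monocyte-like, 3 to 25 in macrophage-like and 12 to 28 in nonclassical monocyte-like cells. Members called ranged from 0 to 2 in NK-like, 0 to 1 in T-like, 0 to 2 in macrophage-like and 1 to 2 in nonclassical monocyte-like cells. The NK-like members were S100a8 and S100a9, which passed the filter through DOCA-salt mice only, and the T-like member S100a4. In macrophage-like cells S100a4 lost its call in 2 of 11 alternatives with all mice (stricter cell filter and hashtag margin 5) and in 4 of 8 with a mouse left out, with log2 changes from 1.26 to 2.38 over all. S100a6 in nonclassical monocyte-like cells had log2 changes from 1.09 to 1.23 over the 10 alternatives with all mice and from 0.99 to 1.25 over the 8 with a mouse left out. Both members were chosen on these contrasts, so nothing is read from whether their calls held. B-like S100a6 was called with libraries clustered apart (log2 change 1.88, adjusted p = 0.0485). DESeq2 gave no adjusted p for S100a4, S100a8 and S100a9 in B-like or S100a13 and S100a10 in nonclassical monocyte-like cells. No value came from Leiden resolution 0.5 for classical monocyte-like cells, from separate clustering or sums of at least 10 cells for ILC2-like, cDC2-like and classical monocyte-like cells, or from cDC2-like cells without sham mouse 1, 2 or 4. Low counts limit S100a8 and S100a9 outside neutrophil-like cells, and sham monocyte and dendritic classes of few cells.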
